A study of Mus musculus with 3 samples.

Results

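The genes described here encode translation initiation and elongation factors, the proteins that start and run protein synthesis in the cytosol. They were chosen by name: nuclear protein-coding genes whose symbol begins with Eif and a digit, or with Eef1 or Eef2, leaving out the Eif2ak kinases. The rule found 64 genes among 22015 nuclear protein-coding genes, and none of their measured values was used to choose them. They comprise 4 genes of start-codon selection, 6 of eIF2 and initiator tRNA delivery, 5 of eIF2B, 14 of eIF3, 11 of cap binding and eIF4F, 4 eIF4E-binding proteins, 3 of subunit joining, 9 of elongation, 6 kinase and methyltransferase genes that act on elongation factors, and 2 others.

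Total RNA depleted of ribosomal RNA was measured in the cytosolic fraction of bone-marrow-derived macrophages of C57BL/6J mice, which are macrophages grown in culture from marrow. All 3 libraries, labelled biological replicates 1, 2 and 3, belong to 1 group. The cells received 100 ng/ml Lipid A for 12 hours, were washed and left for 12 hours, and then met the same dose once more, for 40 minutes. This lipid anchors bacterial lipopolysaccharide in the outer membrane and is sensed by the Toll-like receptor Tlr4. Sex and age were not collected, and the 3 samples carry the same donor label, so the spread between them may be partly technical. No untreated or once-stimulated cells and no other cell fraction were analysed here, so the values are levels and not responses. With 1 group no comparison between conditions was possible, and no p-value is given, since an exact sign-flip test over 3 libraries cannot go below 0.25.

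In initiation, eIF2 carries the initiator tRNA to the small ribosomal subunit, where eIF1, eIF1A and eIF3 hold it while the start codon is found. The cap-binding complex eIF4F, made of eIF4E, eIF4G and the helicase eIF4A, brings the mRNA, and eIF5 and eIF5B release the factors and join the large subunit. eEF1A then delivers each aminoacyl-tRNA, its exchange complex eEF1B recharges it with GTP, and eEF2 moves the ribosome by one codon. In macrophages these steps are known points of control after a bacterial stimulus, through phosphorylation of eIF2 and through release of eIF4E from its binding proteins downstream of mTORC1.

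The libraries held 38197192, 46327891 and 38685666 expected counts on annotated genes in replicates 1, 2 and 3. At these depths 3 counts, the most that a count of 0 allows at 95% confidence, equal 0.0785, 0.0648 and 0.0775 CPM, for counting error only. All 6 macrophage markers were detected, at mean levels of 40.7 to 3020 TPM, and none of 13 markers of other blood and stromal cells was, the highest being Ighm at 0.37 TPM. TPM is a relative measure of transcript abundance that corrects for transcript length and shares a fixed total among all RNA of a library. Nuclear protein-coding genes took 33.3%, 28.1% and 27.7% of that total, so their TPM ran higher in replicate 1, by a median of 0.15 on the log2 scale from the gene means against -0.09 and -0.06 in the others. In bulk RNA of this kind, fewer cells making a transcript and less of it per cell cannot be told apart.

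Of the 64 factor genes 60 were detected, meaning at least 1 TPM in all 3 libraries, or 93.75%, beside 41.4% of all nuclear protein-coding genes. The median factor gene stood at 4.34 on the log2(TPM + 1) scale, against 0.23 over all nuclear protein-coding genes. Among detected genes the median mean level was 21.9 TPM for the factors and 8.585 TPM for protein-coding genes as a whole. There were 42 of the 60 detected factors above the middle of detected protein-coding genes, where 50% lie by definition, and 10 of the 64 were among the 1000 most abundant, which hold 4.54% of protein-coding genes. Together the factors summed to 3426, 3048 and 2780 TPM in replicates 1, 2 and 3. As a share of all nuclear protein-coding TPM this was 1.03%, 1.09% and 1.01%, or 1.04% ± 0.0419 (SD, n = 3). A single gene, Eef1a1, held 31.9%, 31.6% and 30.4% of the factors' sum.

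**Figure D1:**
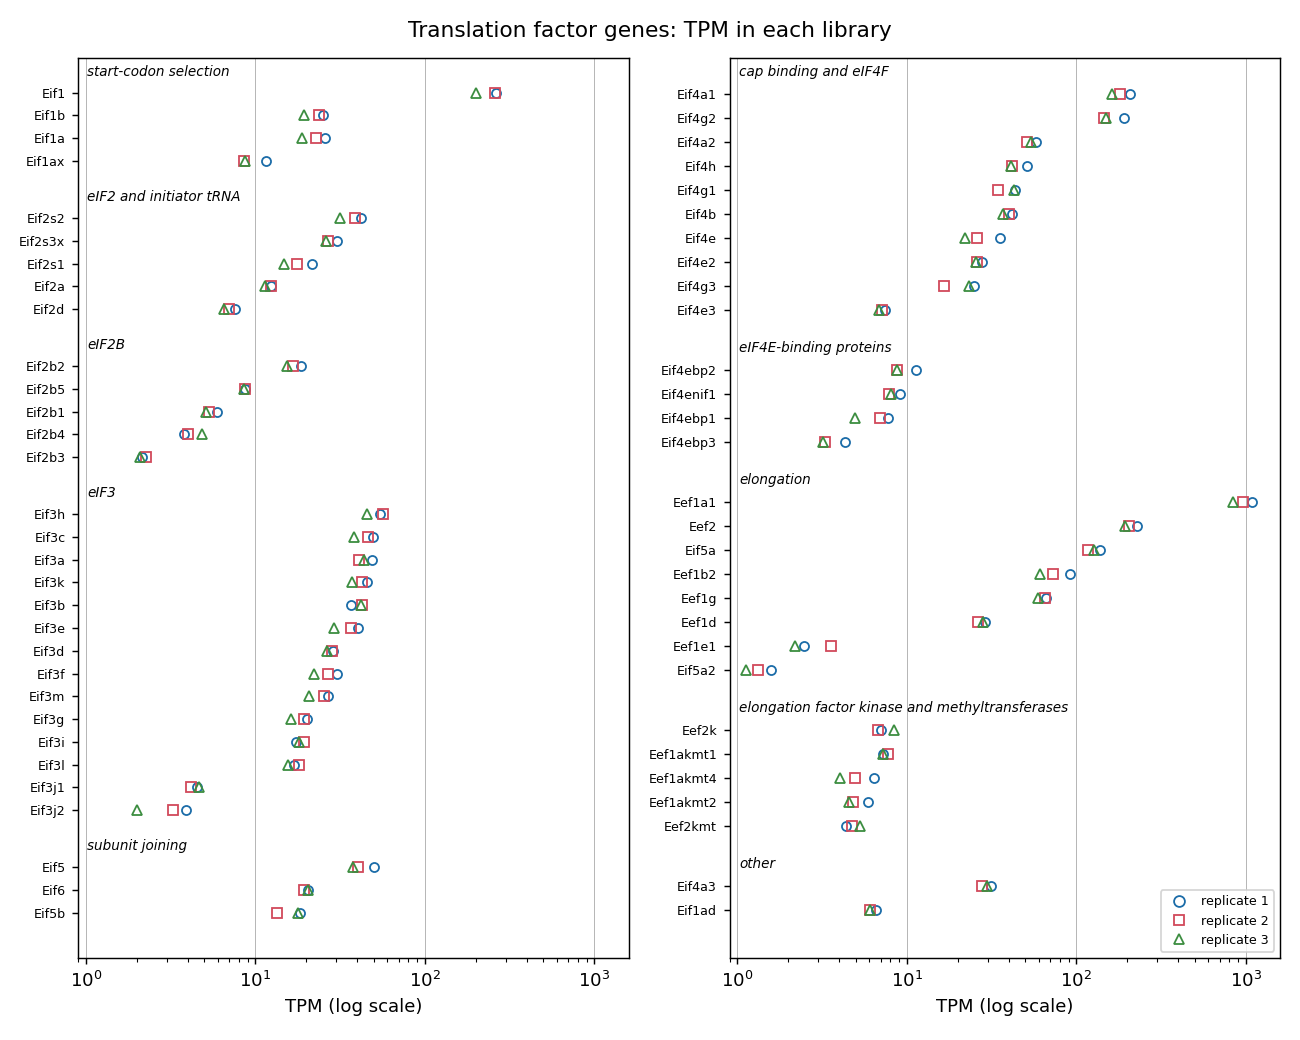
TPM of the 60 detected factor genes in each of the 3 libraries, on a log axis, grouped by role and ordered by mean level within a role. Eef1a1 lies near 1000 TPM, Eif1, Eef2, Eif4a1, Eif4g2 and Eif5a between 118 and 261 TPM, and Eif5a2 lowest near 1 TPM.

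Elongation factor genes spanned the widest range of any role, 720-fold between mean levels of the 8 detected. Eef1a1 (chr9:78478449-78489151, mm10, minus strand), which encodes the tRNA carrier eEF1A1, stood at 1093, 963 and 844 TPM in replicates 1, 2 and 3 (967 ± 124, SD, n = 3), rank 21 among protein-coding genes. Eef2 (chr10:81176631-81182498), the translocase, stood at 227, 203 and 195 TPM (208 ± 16.5). Eif5a (chr11:69916714-69921958), now known to act in elongation and termination at slow peptide bonds, stood at 137, 118 and 127 TPM (127 ± 9.90). These 3 kept the same order in every library with no overlap of their ranges. The eEF1B exchange complex followed. Its catalytic subunit gene Eef1b2 stood at 91.7, 72.5 and 60.9 TPM (75.0 ± 15.6), and its anchoring subunit gene Eef1g at 65.9, 65.3 and 59.2 TPM (63.4 ± 3.68). Eef1d, which encodes a further exchange subunit, stood at 29.0, 26.3 and 28.3 TPM (27.8 ± 1.40). By gene TPM Eef1b2 was above Eef1g in each library, an order of gene sums. The ranges of the pair overlapped after rescaling TPM to the same protein-coding total in each library. Transcripts of the protein-coding type took a mean of 51.3% of the TPM of Eef1b2 and 88.6% of that of Eef1g. For that type alone Eef1g was the higher in every library.

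The elongation genes that were low or absent include paralogs with known tissue-restricted use. Eef1a2, the muscle and neuron form of eEF1A, had 0, 0 and 1 expected counts, at or under the floor of 3 counts, while Eef1a1 had 92306, 119412 and 83797. The annotated transcripts of this pair are 80.5% identical over 1385 aligned bases. Eif5a2 stood at 1.57, 1.33 and 1.13 TPM (1.34 ± 0.220), which puts Eif5a 5.78 ± 0.12 (SD, n = 3) higher on the log2(TPM + 1) scale and 95.4-fold higher without the pseudocount. Eef1e1, which encodes a small protein of the multi-tRNA-synthetase complex, stood at 2.46, 3.55 and 2.19 TPM (2.73 ± 0.720) and was highest in replicate 2.

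The regulators of elongation were present at a few TPM each. Eef2k, the kinase that phosphorylates eEF2 and stalls it, stood at 7.02, 6.73 and 8.37 TPM (7.37 ± 0.875). Eef2kmt, a methyltransferase of eEF2, stood at 4.36, 4.73 and 5.28 TPM. The detected methyltransferases of eEF1A, Eef1akmt1, Eef1akmt2 and Eef1akmt4, had means of 7.37, 5.09 and 5.13 TPM. Eef1akmt3 was not detected, with 2, 1 and 1 expected counts. Among these 5 detected modifiers the extremes differed 1.54-fold, and of 4 neighbours in the order of levels 1 pair had ranges that did not overlap, Eef1akmt1 above Eef1akmt4. Here and for the other roles, neighbours were compared on rescaled TPM.

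Eef1b2 had nearly as much TPM on transcripts annotated for nonsense-mediated decay, the pathway that degrades mRNA with a premature stop codon, as on transcripts of the protein-coding type. In the alignment-based transcript table the decay type took 45.5%, 45.6% and 44.1% of the gene's TPM (45.1 ± 0.88) and the protein-coding type 51.3% ± 1.42. The read-based table gave 49.9% ± 1.45 and 48.2% ± 0.78. Nearly all of the decay share lay on Eef1b2-205, a transcript of 691 bases with 44.2% ± 1.48 of TPM and 33.9% ± 1.29 of the gene's counts. Compared with the protein-coding Eef1b2-204 its first exon ends 41 bases earlier and its second exon begins 31 bases earlier. The net loss of 10 bases is not a multiple of 3, so the frame shifts, and the annotated reading frame ends after 68 codons, against 225 in Eef1b2-204. The other protein-coding transcript, Eef1b2-209, leaves out that second exon and has 184 codons. The second exon of Eef1b2-205 is printed because its added bases set the transcript apart, and the next stretch because it holds the stop. The exon of that next stretch is in 2 of 2 protein-coding transcripts. Capitals mark the added 31 bases and the stop codon, and both lie on the plus strand of chr1 (GRCm38, from the M21 transcripts).
Eef1b2-205 second exon, chr1:63177723-63177876: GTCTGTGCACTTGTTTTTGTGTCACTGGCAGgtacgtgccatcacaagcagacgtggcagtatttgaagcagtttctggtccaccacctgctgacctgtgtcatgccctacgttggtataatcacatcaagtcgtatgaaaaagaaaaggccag
Eef1b2-205 next exon to its stop, chr1:63178439-63178452: cctgccgggagTGA

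Start-codon selection was led by Eif1 (chr11:100319885-100322096), which encodes the factor that rejects poor start codons. Eif1 stood at 261, 259 and 199 TPM in replicates 1, 2 and 3 (240 ± 35.3, SD, n = 3). Its paralog Eif1b stood at 25.1, 23.9 and 19.4 TPM (22.8 ± 3.01), so Eif1 was 10.5-fold higher, a log2 ratio of 3.34 ± 0.05 with the pseudocount. In the gene table the ratio varied little between libraries although both genes were lowest in replicate 3. By read-based TPM it varied more, at 3.32 ± 0.16 with the pseudocount. The ratio compares gene sums, of which transcripts of the protein-coding type took 55.4% ± 2.07 in Eif1 and 100% in Eif1b. For that type alone the ratio is smaller. The eIF1A genes, whose product works beside eIF1, were Eif1a at 25.7, 22.6 and 18.9 TPM and Eif1ax at 11.5, 8.62 and 8.68 TPM. Eif1b and Eif1a had overlapping ranges, and both lay above Eif1ax in every library.

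All 3 subunit genes of eIF2 were detected. Eif2s2, the β subunit gene, stood at 42.1, 38.8 and 31.5 TPM (37.5 ± 5.40), Eif2s3x, the γ subunit gene on the X chromosome, at 30.4, 26.7 and 26.0 TPM (27.7 ± 2.39), and Eif2s1, the α subunit gene, at 21.7, 17.7 and 14.7 TPM (18.0 ± 3.50). The extremes thus differed 2.08-fold, and after rescaling the order β, γ, α held with no overlap. The α subunit is the one that stress kinases phosphorylate. Eif2s3y, the Y-linked copy of the γ subunit gene, had 0 expected counts in each library, where 3 counts would be the limit. It is 86.4% identical to Eif2s3x over 1426 aligned bases. Eif2a and Eif2d, which encode alternative initiator tRNA carriers, had means of 12.0 ± 0.558 and 7.03 ± 0.530 TPM.

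The eIF2B genes, whose complex reloads eIF2 with GTP and is blocked by phosphorylated eIF2, ran lower and less evenly. Eif2b2 had the highest mean at 16.9 ± 1.65 TPM, then Eif2b5, the catalytic ε subunit gene, at 8.64 ± 0.0755, Eif2b1 at 5.47 ± 0.416, Eif2b4 at 4.21 ± 0.531 and Eif2b3 at 2.16 ± 0.0850 TPM. By gene TPM, summed over all transcripts, all 4 steps of this order were free of overlap after rescaling, and the extremes differed 7.80-fold. Eif2b5 stood at 8.65, 8.71 and 8.56 TPM in replicates 1, 2 and 3, and at 26.0, 31.0 and 31.0 after rescaling, so its even TPM depends on the scaling. Eif2b2 is a case where the gene value hides its transcripts. Transcripts of the retained-intron type took 46.0%, 41.0% and 51.7% of its TPM, nearly all on Eif2b2-206. That transcript has 338 bases and held 43.9% ± 4.08 of TPM but 6.79% ± 0.997 of the gene's counts. The protein-coding type took 54.0%, 59.0% and 48.3% of the TPM of Eif2b2 and 100% of that of Eif2b5. The lead of Eif2b2 is thus one of gene sums, and for the protein-coding type alone it fails in replicate 3.

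The eIF3 complex, the largest initiation factor, had all 14 genes detected. Leaving out the j subunit, which binds loosely and has 2 gene copies, the 12 others lay between 16.8 and 52.0 TPM with a median of 31.6, a 3.10-fold range. In the gene table Eif3h stood highest at 54.2, 56.4 and 45.5 TPM (52.0 ± 5.76). Lowest of the 12 was Eif3l at 16.8, 18.0 and 15.6 TPM (16.8 ± 1.20). In the read-based table Eif3c was above Eif3h in each library, at 20.6, 24.9 and 17.1 against 19.1, 24.8 and 16.5 TPM. The core scaffold genes lay in the upper part, with Eif3a at 44.5 ± 3.89, Eif3c at 44.8 ± 5.83 and Eif3b at 40.4 ± 3.17 TPM. Eif3k, which encodes a subunit at the edge of the complex, stood at 41.8 ± 4.30 TPM. The members Eif3d, Eif3e, Eif3f and Eif3m lay at 27.8, 35.3, 26.5 and 24.4 TPM, and Eif3g and Eif3i at 18.6 and 18.3 TPM. Neighbours in the order were mostly not separable: by gene-level TPM, 4 of 13 steps had ranges that did not overlap, and 7 of 13 kept their direction in every library. The separate steps were Eif3e above Eif3d, Eif3m above Eif3g, Eif3l above Eif3j1 and Eif3j1 above Eif3j2, of which the last turned round in the read-based table.

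The j copies could not be measured apart. Eif3j1 stood at 4.50, 4.16 and 4.67 TPM and Eif3j2 at 3.88, 3.25 and 1.99 TPM. The annotated transcript of Eif3j2 (chr18:43475418-43477796) is 99.4% identical to Eif3j1 over 2379 bases, so reads can be assigned to either. The deposited posterior SD of Eif3j2 reached 10.3% of its counts. The log2 ratio of Eif3j1 over Eif3j2 was 0.46 ± 0.41 (SD, n = 3) in the gene table and -0.58 ± 0.27 in the read-based table, on the log2(TPM + 1) scale, so its sign depends on the table.

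**Figure D2:**
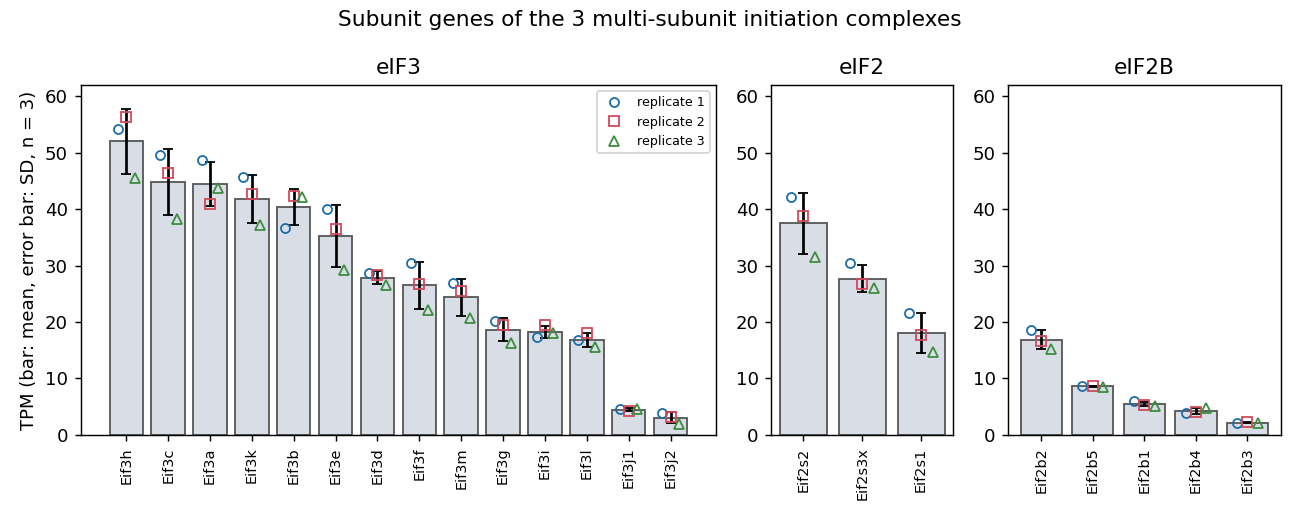
TPM of the subunit genes of eIF3, eIF2 and eIF2B, as bars for the mean with SD (n = 3) and a point for each library. The eIF3 genes other than the j copies lie between 16.8 and 52.0 TPM, the eIF2 genes between 18.0 and 37.5, and the eIF2B genes between 2.16 and 16.9.

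Among the cap-binding and scanning factors Eif4a1 and Eif4g2 had the highest levels, above the cap-binding protein gene Eif4e in every library. Eif4a1 (chr11:69666936-69672423), the main helicase gene, stood at 206, 180 and 162 TPM (183 ± 22.3, SD, n = 3). Eif4g2 (chr7:111067750-111083030), whose product lacks the eIF4E site and supports cap-independent initiation, stood at 191, 146 and 149 TPM (162 ± 25.6). Eif4e, the cap-binding protein gene, stood at 35.6, 25.9 and 22.1 TPM (27.9 ± 6.97), and was highest in replicate 1 and lowest in replicate 3 also after rescaling. Eif4e2, a cap-binding competitor of eIF4E, stood at 27.7, 26.0 and 25.5 TPM (26.4 ± 1.16). The log2 ratio of Eif4e over Eif4e2 was 0.35, -0.01 and -0.20 in the 3 libraries (0.05 ± 0.28). In the read-based table, without a pseudocount, it was 0.52, 0.36 and 0.05, so which of the pair is higher depends on the library and the table. Eif4e3 stood at 7.14 ± 0.300 TPM. For Eif4e1b, an oocyte form, the tables disagreed: it had 0 expected counts in each library in the gene table but 0.597, 0.214 and 0.414 TPM in the read-based table.

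The classical scaffold genes Eif4g1 and Eif4g3 stood at 43.5, 34.5 and 42.6 TPM and at 24.8, 16.5 and 23.1 TPM. Both were lowest in replicate 2, and Eif4g1 was 1.89-fold higher (log2 ratio 0.89 ± 0.12 with the pseudocount, SD, n = 3). The helicase cofactor genes Eif4b and Eif4h stood at 39.5 ± 2.39 and 44.6 ± 5.68 TPM. Of 9 steps in this role 5 were free of overlap, and the ranges of Eif4h, Eif4g1 and Eif4b overlapped in turn. Among the 5 was Eif4a1 above Eif4g2. By read-based TPM Eif4g2 was the higher in replicates 1 and 3, at 79.1 and 69.4 against 76.1 and 65.0.

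The eIF4E-binding protein genes were all below the genes for eIF4E and eIF4E2. Products of the Eif4ebp genes among them block eIF4E until mTORC1 phosphorylates them. Eif4ebp2 stood at 11.3, 8.74 and 8.79 TPM (9.60 ± 1.44) and Eif4ebp1 at 7.69, 6.90 and 4.96 TPM (6.52 ± 1.40). Eif4ebp2 was the higher of the pair in 3 of 3 libraries, with a log2 ratio of Eif4ebp1 over Eif4ebp2 of -0.50 ± 0.21 (SD, n = 3). Eif4enif1, the eIF4E transporter gene, stood at 8.31 ± 0.655 TPM. It overlaps Drg1 on the other strand over its whole span, with Drg1 at 18.6 TPM, and whether counting used strand is not given in the sources used here. Eif4ebp3 stood at 4.34, 3.30 and 3.21 TPM, but its span lies within a longer gene of the same strand at 5.56 TPM, and its posterior SD reached 11.8% of its counts.

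Eif4a2 (chr16:23107444-23114136), the second helicase gene, stood at 58.1, 51.0 and 53.6 TPM (54.2 ± 3.55), 3.36-fold below Eif4a1. On the log2(TPM + 1) scale Eif4a1 was higher by 1.73 ± 0.13 (SD, n = 3), in 3 of 3 libraries. This compares gene sums, of which transcripts of the protein-coding type took 92.6% ± 3.21 in Eif4a1 and 24.2% ± 2.09 in Eif4a2. For that type alone the gap is larger. Eif4a2 had the smallest protein-coding share of all detected factors. In the alignment-based table the protein-coding type took 26.5%, 23.6% and 22.5% of its TPM in replicates 1, 2 and 3 (24.2 ± 2.09). The nonsense-mediated decay type took 56.5%, 69.9% and 56.7% (61.0 ± 7.71), highest in replicate 2. The retained-intron type took 17.0%, 6.51% and 20.8% (14.8 ± 7.42), lowest in replicate 2. The read-based table put less on the decay type, 46.8% ± 6.71, and more on the protein-coding type, 35.4% ± 3.01, with the decay type still the larger in every library.

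Most of the Eif4a2 decay share lay on 2 transcripts that differ from the coding form in different exons. Eif4a2-210 took 37.1%, 44.5% and 36.3% of TPM and 42.4% ± 4.20 of the gene's counts. It skips an exon of 140 bases, exon 4 of 12 in Eif4a2-204, that 5 of 6 protein-coding transcripts contain. Since 140 is not a multiple of 3, the next exon is read in another frame and its annotated frame ends after 97 codons, against 407 in Eif4a2-201. Eif4a2-204 took 12.6%, 18.8% and 14.0% of TPM. It keeps exon 4 and includes an exon 11 of 107 bases, in which the frame ends at codon 362. The protein-coding transcripts Eif4a2-202 and Eif4a2-224 end their frame at the same stop. The skipped exon and the stop exon, which set these transcripts apart, are printed with a stretch next to each. They come from the M21 transcripts (GRCm38, plus strand of chr16), with the stop codons in capitals. The exon after the skip is in 6 of 6 protein-coding transcripts and the exon before the stop exon in 5 of 6. The skipped exon holds no capitals.
Eif4a2 exon skipped in Eif4a2-210, chr16:23109120-23109259: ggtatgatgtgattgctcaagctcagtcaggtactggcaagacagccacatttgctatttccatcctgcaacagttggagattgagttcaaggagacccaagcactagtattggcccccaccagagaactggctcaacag
Eif4a2-210 next exon to its stop, chr16:23109985-23110067: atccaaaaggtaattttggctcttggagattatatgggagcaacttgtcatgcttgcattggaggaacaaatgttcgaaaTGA
Eif4a2-204 exon before its stop exon, chr16:23111817-23111896: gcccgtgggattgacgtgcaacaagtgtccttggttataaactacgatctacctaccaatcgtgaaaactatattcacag
Eif4a2-204 stop exon to its stop, chr16:23112351-23112360: gagtcgaTAG

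Of the 60 detected factors 42 had at least 90% of TPM on transcripts of the protein-coding type, or 70%, beside 65.3% of detected protein-coding genes. Under 60%, a limit chosen after the values were seen, lay 7 of 60, beside 8.81%, so both shares are near the background. Beside Eif4a2, Eef1b2 and Eif2b2 these were Eif1ax, Eif1, Eif4a3 and Eef1akmt2. The list depends on the table, since by read-based TPM the protein-coding share was 73.8% in Eif4a3 and 46.2% in Eif5b. Eif1ax had 62.3%, 48.8% and 52.4% of TPM on the retained-intron transcript Eif1ax-202, whose 416 bases held 4.69% ± 1.38 of the counts. Eif1 had 43.8% ± 2.01 of TPM and 10.7% ± 0.762 of counts on Eif1-202, a processed transcript of 383 bases. In Eif4a3, the helicase gene of the exon junction complex, Eif4a3-203 of 466 bases took 43.7% ± 0.860 of TPM and 13.2% ± 0.180 of counts in the alignment-based table, but 22.0% of TPM in the read-based one. TPM divides by length, so a short transcript takes a larger share of TPM than of counts, as in Eif1ax, Eif1, Eif4a3 and Eif2b2. Eef1akmt2 had 23.0% ± 3.90 on the decay type and 14.8% ± 4.53 on the retained-intron type.

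The most abundant factors differed in how much TPM lay on protein-coding transcripts. Of the 15 highest, those under 90% in the alignment-based table were Eif4a2 (24.2%), Eef1b2 (51.3%), Eif1 (55.4%), Eif5 (78.7%) and Eef1g (88.6%). Eef2-201 held 99.2% ± 0.363 of the TPM of Eef2, Eef1a1-201 95.6% ± 1.84 and Eif4a1-213 92.6% ± 3.21 of theirs. Eif5a was split among protein-coding transcripts, with 59.0% ± 2.05 on Eif5a-210, 27.5% ± 1.25 on Eif5a-213 and 10.8% ± 2.92 on Eif5a-209. Eif4g2 was split between Eif4g2-206 (76.3% ± 3.00) and the longer Eif4g2-213 (16.3% ± 1.97), and Eif4h between Eif4h-201 (62.1% ± 2.81) and Eif4h-205 (31.8% ± 0.699). For Eif5b, the joining GTPase gene, the tables disagreed. Its retained-intron share was 5.74%, 3.80% and 10.9% in the alignment-based table and 52.1%, 52.0% and 57.4% in the read-based table.

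**Figure D3:**
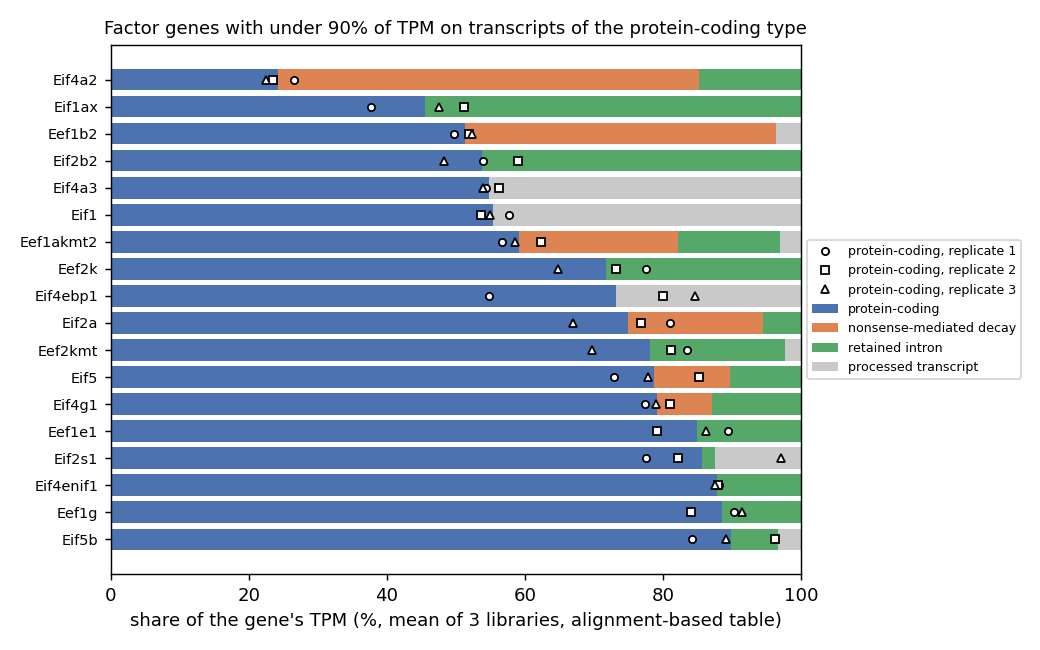
Share of each gene's TPM by annotated transcript type, as stacked bars of the mean over 3 libraries in the alignment-based table, for the 18 detected factors with under 90% on the protein-coding type; points give the protein-coding share in each library. Eif4a2 is lowest at 24.2%, with 61.0% on the nonsense-mediated decay type.

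The subunit joining genes were led by Eif5, which encodes the activator of GTP hydrolysis by eIF2, at 50.3, 40.3 and 37.7 TPM (42.8 ± 6.64, SD, n = 3). Eif6, whose product keeps the large subunit apart, stood at 20.5, 19.3 and 20.4 TPM (20.1 ± 0.707). Eif5b stood at 18.3, 13.4 and 17.8 TPM (16.5 ± 2.68), lowest in replicate 2 like the Eif4g genes. Eif4a3 stood at 29.5 ± 1.97 TPM and Eif1ad, a small eIF1A-like gene, at 6.23 ± 0.293 TPM.

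Factor genes varied between libraries about as much as other detected genes, and which varied more depended on the scaling. The median SD of log2(TPM + 1) was 0.147 over the 60 detected factors and 0.157 over all detected protein-coding genes. After centring each library on the median of detected protein-coding genes it was 0.133 and 0.131, and with TMM-normalised counts 0.152 and 0.128. There were 53 of 60 factors with a coefficient of variation of TPM under 20%, or 88.3%, beside 80.7%. The 5 with the largest SD of log2(TPM + 1) were Eif3j2 (0.36), Eif4e (0.34), Eif4g3 (0.30), Eef1b2 (0.29) and Eif4ebp1 (0.28). The 5 with the smallest were Eif2b5 (0.01), Eif2b3 (0.04), Eef1akmt1 (0.05), Eif6 (0.05) and Eif4e3 (0.05). Both lists depend on the scaling. By the SD of centred values the largest were Eef1e1 (0.44), Eif3j2 (0.43), Eif2b4 (0.28), Eif4ebp1 (0.27) and Eef2kmt (0.25), with Eif4e at 0.24. The smallest were then Eif4enif1 (0.02), Eif3a (0.04), Eif2s3x (0.04), Eif5a (0.05) and Eif4a2 (0.05), while Eif2b5 was at 0.13. TPM was highest in replicate 1 for 48 of 60 factors, or 80%, beside 76.3% of detected protein-coding genes, a share near that background.

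After centring, replicate 2 was the highest library for 35 of 60 factors, or 58.3%, beside 35.4% of detected protein-coding genes, and the lowest for 4 of 60, beside 35%. Replicate 3 was the lowest for 31 of 60, beside 32.8%, and the highest for 13 of 60, beside 33.5%. The sizes were small, with a median deviation of -0.02, 0.08 and -0.05 on the log2 scale in replicates 1, 2 and 3. By role, replicate 2 was highest for 11 of 14 eIF3 genes, 4 of 5 eIF2 group genes and 4 of 5 eIF2B genes, but for 4 of 10 cap-binding genes and 0 of 3 joining genes. The eIF3 genes had median deviations of -0.03, 0.15 and -0.12. The 4 genes lowest in replicate 2 were Eif4g3 (-0.27), Eif5b (-0.19), Eif4g1 (-0.12) and Eif3a (-0.02), and Eef1e1 was the highest there (0.50). Replicate 2 was also the deepest library, and its retained-intron shares were the lowest over all detected genes with such transcripts, with medians of 4.69%, 1.71% and 5.94% in replicates 1, 2 and 3. Their part in the deviations was not tested. Among the factors the medians were 2.56%, 1.31% and 2.92%, and 29 of 39 were lowest in replicate 2, beside 76.3%. Among factors with a mean share of at least 1% it was 21 of 29, beside 78.7%. By read-based shares it was 34 of 40, beside 80.7%, and all 3 counts are near their background.

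**Figure D4:**
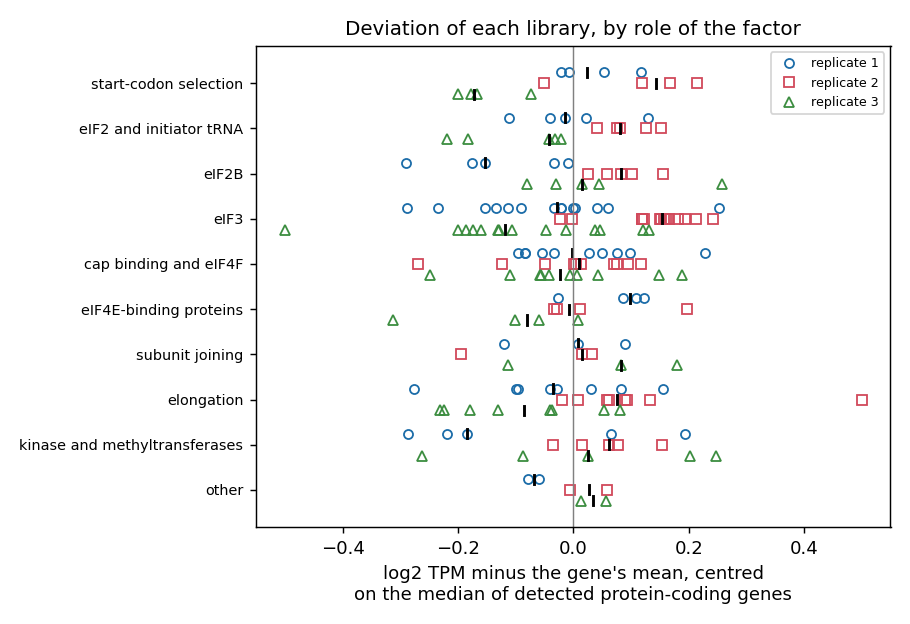
Deviation of each detected factor gene in each library from the gene's mean log2 TPM, centred on the median of detected protein-coding genes, by role; open symbols are genes and black ticks the median of a role in a library. The eIF3 medians lie at -0.03, 0.15 and -0.12 in replicates 1, 2 and 3, and the single point at 0.50 is Eef1e1.

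Promoter sequences from RefSeq (GRCm38.p6), from 250 bases before to 50 after each annotated start, matched 48 of the 64 genes with 62 windows. Not matched were Eef1akmt1, Eef1akmt3, Eef1d, Eef1g, Eif1a, Eif2b3, Eif3e, Eif3h, Eif3i, Eif3j2, Eif4e1b, Eif4e3, Eif4ebp1, Eif4ebp3, Eif4g2 and Eif6. Many mRNAs for translation proteins are known to begin with a 5′ terminal oligopyrimidine tract, a C followed by C or T bases, through which mTORC1 controls their translation. A C at the annotated start followed by at least 4 pyrimidines stood in the windows of Eif2s3x and Eif3f, or 4.17% of the 48, beside 2.71% of 16522 protein-coding genes in the same table. Allowing C or T as the first base added Eef1a1 (6.25% beside 4.70%), and allowing a C-started run within 5 bases of the start gave 11 genes (22.9% beside 21.8%). By these letters the factors were near the background. The search read annotated starts, which can be off the true ones, and 16 factors had no window. It therefore cannot tell which of the mRNAs begin with such a tract.

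Of 4 motifs searched on both strands over the 300-base windows, CCGGAAG, the core of Ets sites, was in 16 of the 48 genes (33.3% beside 13.4%). CACGTG, the E-box letters, was in 13 (27.1% beside 9.18%). TATAAA was in 5 (10.4% beside 14.3%), and TGACGTCA, the cyclic AMP response element letters, in 1, Eef2 (2.08% beside 2.64%). No motif contains another. The background shares are over all 16522 protein-coding genes with a window, detected or not. Shares among detected genes alone were not computed, so a feature of expressed genes in general cannot be told apart. The E-box letters occurred among others in Eef2, Eif4a1, Eif5a, Eif4e, Eif4g1, Eif3a, Eif3f and Eif3k. The Ets letters occurred in Eef1b2, Eif5a, Eif1ax, Eif2b2, Eif3c, Eif3d, Eif3g, Eif3l and Eif3m. These matches are descriptions of letters, and binding was not measured. Shown are 120 bases before and 15 from the start on for the 2 most abundant elongation factors, for both C-started runs and for a window with the Ets letters. Capitals mark the motifs and the pyrimidine run at the start.
Eef1a1, chr9:78481710-78481844, minus strand: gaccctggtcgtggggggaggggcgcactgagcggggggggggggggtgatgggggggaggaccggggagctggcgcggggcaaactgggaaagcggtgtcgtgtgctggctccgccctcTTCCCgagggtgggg
Eef2, chr10:81176511-81176645, plus strand: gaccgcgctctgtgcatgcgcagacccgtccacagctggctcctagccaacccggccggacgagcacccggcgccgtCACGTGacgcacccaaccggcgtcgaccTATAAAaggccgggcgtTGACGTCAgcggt
Eif2s3x, chrX:94212637-94212771, minus strand: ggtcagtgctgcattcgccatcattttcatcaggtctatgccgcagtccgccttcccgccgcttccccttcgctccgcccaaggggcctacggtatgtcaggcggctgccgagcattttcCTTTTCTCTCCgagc
Eif3f, chr7:108934295-108934429, plus strand: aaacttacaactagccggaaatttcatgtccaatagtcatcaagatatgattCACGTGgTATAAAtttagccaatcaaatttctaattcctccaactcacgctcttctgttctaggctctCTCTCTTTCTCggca
Eef1b2, chr1:63176711-63176845, plus strand: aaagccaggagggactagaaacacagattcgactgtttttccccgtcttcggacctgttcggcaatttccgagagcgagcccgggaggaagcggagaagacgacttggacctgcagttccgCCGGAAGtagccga

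Other genes of the pathway were taken from lists of 27, and 26 were detected, the exception being Gspt2 at 0.227 TPM. All 7 of the list of eIF2 kinases, the eIF2 phosphatase and the target Atf4 were detected. Eif2ak2, the interferon-induced kinase that senses double-stranded RNA, stood at 46.1, 34.8 and 41.7 TPM (40.8 ± 5.71, SD, n = 3), above Eif2ak1, Eif2ak4 and Eif2ak3 at 8.54, 3.10 and 1.88 TPM. Ppp1r15a, the stress-induced phosphatase subunit that restores eIF2, stood at 221, 229 and 84.3 TPM, replicate 3 being far below the others. Atf4, whose translation rises when eIF2 is phosphorylated, stood at 120, 120 and 82.9 TPM and was also lowest in replicate 3. All 11 genes of mTORC1 and cap control were detected. They ranged from Pdcd4, an inhibitor of eIF4A, at 1.83 ± 0.0814 TPM to Pabpc1, the poly(A)-binding protein that contacts eIF4G, at 214 ± 16.5 TPM, with Mtor at 4.90 ± 0.815. Of 8 termination and recycling genes 7 were detected, with Etf1, the release factor that reads stop codons, highest at 32.2 ± 4.16 TPM. Eefsec, the selenocysteine elongation factor, stood at 2.55 ± 0.110 TPM.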

How the data were processed

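Total RNA of 1 group of 3 libraries was analysed without a control group. The deposited gene tables hold expected counts and TPM, laid out as by RSEM per the file headers. The deposited posterior standard deviation of each count is treated as a score of assignment uncertainty. Deposited transcript tables hold estimated counts and TPM, made from transcriptome alignments (alignment-based, RSEM layout) or from reads (read-based, kallisto layout), per the file headers and accompanying texts, which name mm10 and annotation M21. For the aligner and quantifiers, names and versions were not given in the sources used here.

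Rows naming no gene (26345, with 0.356%, 0.125% and 0.104% of counts) were left out. Genes were called detected at 1 TPM or more in all 3 libraries, and levels were transformed as log2(TPM + 1), so ratios of low genes come out too small. Rescaled TPM shares the same total among nuclear protein-coding genes alone. Centred values are log2 TPM minus the gene's mean and the median over 9106 detected genes. Expected counts were rounded for TMM factors (edgeR 4.0.16) and size factors (DESeq2 1.42.0), used only for spread and deviations. Identity between genes came from blastn 2.17.0, on the aligned stretch only. The spread calculation was tested on simulated data. Python 3.11.15 and R 4.3.3 were used.

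The members, lists and alternatives were chosen with earlier results of these data known. Any member could be named, by role, with the 5 of largest and of smallest spread, paralog pairs, and transcript shares for the 15 highest members and those with most TPM off the protein-coding type. The stretches of Eif4a2 and Eef1b2 were chosen after the shares were seen. Protein sequences were not used here.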

Additional observations from a re-analysis of the deposited data

How the results depend on the processing

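No paired analysis was possible because all 3 libraries form 1 group. The number of detected factors stayed between 49, at a threshold of 5 TPM, and 61, in the rescaled read-based table. The median factor level of 4.34 on the log2(TPM + 1) scale became 6.05 with rescaled TPM, 3.21 with read-based TPM, 6.13 with rescaled read-based TPM and 4.50 over detected factors only. The first 3 of these change the total that TPM is shared among, and the last changes the genes. Of the 60 detected factors 59 moved by more than 1 SD in the read-based table before rescaling, and 59 lay within 1.5-fold after it, or 98.3%, beside 97.3% of detected genes. The median spread of 0.147 ranged from 0.0893 to 0.160 when 1 library was left out, lowest without replicate 1 and 0.101 without replicate 3. The log2 ratio of Eif4e over Eif4e2 turned to -0.10 without replicate 1 (to 0.17 without replicate 3), and that of Eif3j1 over Eif3j2 to -0.58 in the read-based table; the cause was not tested. Pyrimidine runs rose from 2 to 11 genes when they could begin within 5 bases of the start. Factors highest in replicate 2 numbered 37 with TMM or DESeq2 factors and 44 in the read-based table, against 35. The share over all detected protein-coding genes was computed only beside the 35, at 35.4%, so the other counts have no background. The precision is limited by the number of libraries, 3, and for Eef1a2, Eef1akmt3 and Eif2s3y by depth.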

Other observations

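Pseudogenes resembling the factors took few counts. At 90% identity or more over at least 200 bases, 89 annotated pseudogenes matched 27 of the 64 factor genes, and 4 of the 89 reached 1 TPM in all 3 libraries. Eif1 had 20 such copies and Eef1a1 18. The copies of Eef1a1 summed to 20.5, 15.9 and 18.2 TPM in replicates 1, 2 and 3, and their counts came to 1.19% of those of Eef1a1. The highest single copy was Gm6548, 96.7% identical to Eef1a1 over 1166 bases, at 15.3 TPM. The copies of Eif2s3x had 2.18% of its counts, those of Eif4a1 1.69% and those of Eef1g 1.46%. Eif4a-ps4, 99.9% identical to Eif4a1 over 1218 bases, stood at 4.54 TPM and at 15.6 and 18.0 rescaled TPM in the gene table and the read-based table. For other copies the tables differed more: Gm13456, a copy of Eef1a1, stood at 6.31 and 0.375 rescaled TPM, Gm4366, a copy of Eef1g, at 3.38 and 0.151, and Gm9892, a copy of Eif2s2, at 2.22 and 0.235. At such identity reads cannot be placed with certainty, and whether these copies are transcribed was not tested.

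Small nucleolar RNA genes lie inside several factor genes on the same strand. Gm26447, within Eif4a2, stood at 1006, 136 and 0 TPM in replicates 1, 2 and 3. Gm25835 and Gm22988, both within Eif4a1, stood at 284, 67.1 and 181 TPM and at 220, 137 and 779 TPM. Gm23262, within Eif4g2, stood at 192, 82.6 and 167 TPM. These genes are shorter than the fragments that the labels give as 250 to 400 bases, and their TPM was not compared with that of the hosts.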
